A study of Mus musculus with 6 samples.

Results

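Imprinted genes that set fetal growth were examined in bladders of mouse embryos that lack Get1 and of heterozygous embryos. The set has 10 listed genes: H19, Igf2, Igf2r, Dlk1, Meg3, Peg3, Mest, Cdkn1c, Plagl1 and Grb10. A gene was measured by the probe set that carried its symbol alone and was brightest on average, and 9 of the 10 genes had one, among 18193 genes with a probe set. All 9 passed the filter on dim genes, which left 12735 genes for testing. The probe set of H19 is also annotated to Mir675, a microRNA made from the H19 transcript, so it is described as that probe set and is not counted among the 9.

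RNA of bladders at embryonic day 18.5 was hybridised to 6 arrays. The Get1 -/- group (null 1 to 3) and the Get1 +/- group (heterozygous 4 to 6) had 3 arrays each, and the heterozygous animals, which carry 1 Get1 allele, served as controls. Get1 is another name of Grhl3, a transcription factor of surface epithelia. The labels give no strain and no sex and do not state whether bladders were pooled. If arrays shared animals or a preparation, the p-values measure only that spread. Upper quartiles of signal lay between 336 and 372 on the 6 arrays. The Grhl3 probe set, a check of the labels, gave signals of 76.6, 21.5 and 120 on null arrays and of 143, 133 and 126 on heterozygous arrays, without overlap (log2 difference -0.95, adjusted p = 0.655, limma, and -0.42 if null 2 is left out). Uroplakin genes, which define the bladder lining, were present in both genotypes, but Upk2 was lower in null (-3.03, adjusted p = 0.0022, limma). Of 9 tested intestine genes 8 were called higher in null (limma).

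At imprinted genes only the copy from 1 parent is active, and methylation laid down in egg or sperm marks which copy that is. Genes active from the father's copy, such as Igf2, Dlk1, Mest, Peg3 and Plagl1, mostly favour fetal growth, and genes active from the mother's copy, such as H19, Igf2r, Cdkn1c and Grb10, mostly restrain it. Meg3 is a non-coding RNA of the maternal copy beside Dlk1. Many of these genes are strongly active in fetal mesenchyme and muscle and decline after birth.

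Expression was taken as log2(signal + 16), an offset that compresses the differences of dim genes. Differences are null minus heterozygous, and an adjusted p is limma's with Benjamini-Hochberg adjustment over the 12735 genes. None of the 9 measured genes was called at an adjusted p under 0.05, where 0.51% of all genes tested were called in either direction, 0.448% as higher and 0.0628% as lower. At an unadjusted p under 0.05, 2 of the 9 passed, Mest and Cdkn1c, both lower in null, against 7.93% of all genes in either direction and 4.3% as lower. These were also the 2 genes whose null and heterozygous arrays did not overlap, against 13.4% of all genes without overlap, 7.36% lower and 6.07% higher in null. A difference below 0 was found for 7 of the 9, against 54.9% of all genes. The count of called genes stayed at 0 under each of the 16 alternative settings. The median difference of the 9 genes was -0.13, beside -0.03 over all genes tested.

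**Figure D1:**
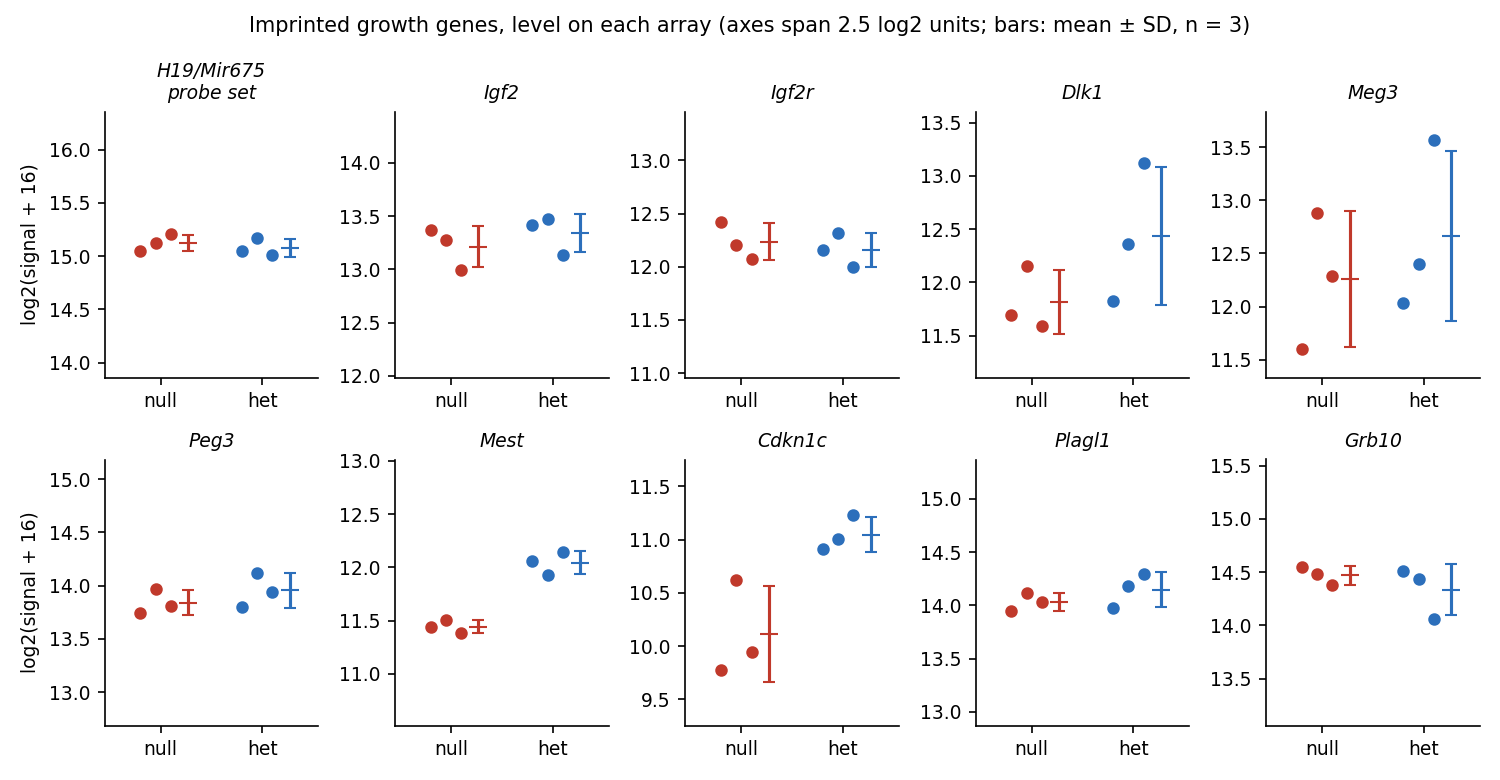
Level of each imprinted growth gene, as log2(signal + 16), on the 3 null (red) and 3 heterozygous (blue) arrays, with the group mean and SD beside the points. Each axis spans the same length. Mest and Cdkn1c are the 2 genes whose groups do not overlap, and Meg3 and Dlk1 have the widest spread within a genotype.

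Mest encodes a membrane protein of the hydrolase fold that is active from the paternal copy in fetal mesoderm. Signals of 2768, 2889 and 2650 in null 1, 2 and 3 stood against 4255, 3883 and 4512 in heterozygous 4, 5 and 6. Every null array lay below every heterozygous array, and the spread within each genotype was small beside the gap. Mean log2 levels were 11.44 ± 0.06 for null and 12.04 ± 0.11 for heterozygous arrays (SD, n = 3 per genotype), a difference of -0.60 (SE 0.20, 95% interval -1.06 to -0.15), or 1.52-fold. The exact two-sided permutation p was 0.1, the smallest that 3 against 3 arrays allow, and limma gave an unadjusted p of 0.0159 and an adjusted p of 0.466. Leaving out 1 array at a time moved the difference between -0.66 and -0.55. Mest had a single probe set, so no second measurement within the gene was at hand.

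RefSeq (GRCm38.p6) lists several starts for Mest, and windows of 300 bases, from 250 before to 50 after the start, are shown for the upstream start and for the start in the CpG-rich stretch, since Mest is the gene with the tightest separated groups. Capitals mark CpG pairs, the sites that carry imprint methylation. The windows lie at chr6:30733256-30733555 and chr6:30737800-30738099, both on the plus strand.
Mest upstream start: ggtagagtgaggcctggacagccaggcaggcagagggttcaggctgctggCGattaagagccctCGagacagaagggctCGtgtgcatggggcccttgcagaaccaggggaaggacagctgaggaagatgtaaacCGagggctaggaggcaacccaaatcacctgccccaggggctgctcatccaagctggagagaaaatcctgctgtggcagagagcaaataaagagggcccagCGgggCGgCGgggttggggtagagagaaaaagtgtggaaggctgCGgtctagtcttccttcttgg
Mest CpG-rich start: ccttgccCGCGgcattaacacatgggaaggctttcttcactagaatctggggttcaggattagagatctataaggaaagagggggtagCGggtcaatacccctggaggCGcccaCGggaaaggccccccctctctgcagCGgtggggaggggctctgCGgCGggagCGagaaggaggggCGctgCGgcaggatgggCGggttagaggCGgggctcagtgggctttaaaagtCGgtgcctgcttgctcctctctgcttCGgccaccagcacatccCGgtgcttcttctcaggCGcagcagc
The upstream window holds 8 CpG pairs and the other 17, where the median of all 32851 promoter windows is 7. The hexamer TGCCGC, which the imprint-keeping zinc finger protein ZFP57 binds when methylated, was searched on both strands. The CpG-rich window holds it 2 times on the reverse strand, and the upstream window holds none. Of all windows 11.6% hold it on either strand. The arrays do not tell which start was used. miR-335 lies inside Mest, and its 5p strand is shown because it is made from the same locus, with the seed (bases 2 to 8) in capitals.
mmu-miR-335-5p: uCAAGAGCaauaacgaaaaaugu
These arrays gave no value for it here.

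Cdkn1c encodes p57, an inhibitor of cyclin-dependent kinases that is active from the maternal copy. The null arrays read 862, 1561 and 970 and the heterozygous ones 1906, 2039 and 2384. The groups did not overlap, and null 2 lay nearest to the heterozygous values. Mean log2 levels were 10.12 ± 0.45 for null and 11.05 ± 0.16 for heterozygous arrays (SD, n = 3 per genotype). The difference of -0.93 (SE 0.27, 95% interval -1.56 to -0.30), a 1.91-fold one, was larger in size than that of 95.5% of all genes tested. It did not pass over all genes (unadjusted p = 0.0094, adjusted p = 0.389, limma; exact permutation p = 0.1). With 1 array left out it ranged from -1.19 without null 2 to -0.76 without null 1. Cdkn1c also has a single probe set.

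Several marker lists had a median below 0, the side on which Mest and Cdkn1c lay. The neuron and glia list had a median difference of -0.71 with 8 of 8 tested genes below 0. The endothelium and pericyte list had -0.32 with 6 of 10, near the 54.9% of all genes that lay below 0. In it 1 gene was lower without overlap and 1, Cdh5, was higher without overlap (0.41, adjusted p = 0.722, limma). Of all genes 7.36% and 6.07% were. The urothelium list had -0.49, also with 6 of 10, and the other 4 lay above 0. In it 3 genes were lower without overlap (7.36% of all genes) and 1 was called lower (0.0628% of all genes, limma). The cartilage and bone list had -0.45 with 3 of only 4 tested among 10 listed, and the erythroid and immune list -0.20 with 5 of 6. Of 10 fibroblast and stromal genes 8 had a difference below 0 and 3 had no overlap and were lower, against 7.36% of all genes, with a median of -0.25 and 0 of 10 called. Their mean relative to the heterozygous mean was -0.45, -0.27 and -0.30 on null arrays and -0.17, 0.15 and 0.02 on heterozygous arrays. Their summed signal ran from 92724 to 101397 in null and from 99081 to 121128 in heterozygous bladders, and the lowest single signal in the list was 56.6. Fbln2, Dpt and Mfap5, which encode matrix proteins, had the smallest p of the list. Their differences were -1.004, -0.76 and -0.58 (adjusted p = 0.433, 0.48 and 0.553, limma). The brighter collagen genes Col1a1, Col1a2 and Col3a1 had differences of 0.007, -0.05 and 0.08. Smooth muscle genes lay the other way, with 10 of 10 above 0 and a median of 0.31, and Des at 0.80 (adjusted p = 0.281, limma). Intestine genes did too, with 9 of 9 tested above 0, while liver genes split 3 and 3. Relative to the heterozygous mean, the neuron and glia list stood at -1.28, -0.62 and -0.23 on null arrays and at -0.33, 0.01 and 0.32 on heterozygous ones. The endothelium and pericyte list stood at -0.28, -0.08 and -0.21 against -0.23, 0.18 and 0.06. The part of these cell types in the differences of Mest and Cdkn1c was not tested. In bulk RNA, fewer cells of a type and less RNA per cell cannot be told apart.

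Dlk1 and Meg3 share an imprinted domain, with Dlk1, a membrane ligand related to Notch ligands, active from the father's copy and Meg3 from the mother's. Dlk1 signal was 3285, 4540 and 3069 on null arrays and 3620, 5233 and 8873 on heterozygous arrays. The groups overlapped through heterozygous 4, which lay below null 2, and heterozygous 6 was far above the others. The difference of -0.62 (SE 0.35, 95% interval -1.43 to 0.19, adjusted p = 0.738, limma) was -0.93 without heterozygous 4 and -0.28 without heterozygous 6. A further Dlk1 probe set read 771, 853 and 713 on null arrays and 882, 1228 and 1339 on heterozygous arrays, without overlap (difference -0.53, exact permutation p = 0.1, adjusted p = 0.770 over 31526 probe sets, limma). Over probe sets, 6.41% had no overlap and were lower in null.

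Meg3 varied most between arrays of the same genotype. Its chosen probe set read 3093, 7516 and 4981 on null arrays and 4177, 5385 and 12103 on heterozygous arrays. The range on the log2 scale was 1.28 within null and 1.53 within heterozygous bladders, wider than the difference of -0.41 between them (SE 0.46, 95% interval -1.48 to 0.66, adjusted p = 0.895, limma). In 8 of its 11 probe sets null 1 and heterozygous 4 were the lowest arrays, and null 1 lay below both other null arrays in 10 of 11. The difference was 0.04 without heterozygous 6 and -0.07 with probe sets averaged, where 7 of the 11 lay below 0. On null 1 the skeletal muscle list stood at -1.21 and the neuron and glia list at -1.28 relative to the heterozygous mean, against 0.61 and -0.62 on null 2 and -0.23 and -0.23 on null 3. A further number in the titles, which the labels do not explain, sets null 1 apart from the remaining 5 arrays. On heterozygous 4 these lists stood at -0.13 and -0.33, and on heterozygous 6, the array with the highest Meg3 signal, at -0.23 and 0.32. On heterozygous 5 the lists stood at 0.35 and 0.01. The part of these lists in Meg3's spread, and that of the further number, was not tested. Summed signals of the skeletal muscle list were 24830, 26269 and 20643 on null arrays and 20223, 22247 and 18637 on heterozygous arrays. On null 1 this sum, which bright genes dominate, lay above every heterozygous array, while the list's mean lay below every one. Those of the neuron list ran from 1158 to 2770 in null and from 2503 to 3598 in heterozygous bladders. All 8 tested neuron genes lay below 0, and 7 of 10 skeletal muscle genes did. Without null 1 and heterozygous 4 together, a setting chosen after the data were seen, 0 of the 9 genes were called.

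Other transcripts of that domain were read too. Rian, a non-coding RNA downstream of Meg3, read 4521, 5699 and 5868 on null arrays and 5489, 5665 and 5508 on heterozygous arrays. Null 1 and heterozygous 4 were again the lowest arrays, but all except null 1 lay close together. Its difference was -0.06 (95% interval -0.54 to 0.42, adjusted p = 0.976, limma). Mirg, a host of microRNAs, had a difference of -0.14 (adjusted p = 0.962, limma). The 3 genes whose profile over the 6 arrays lay nearest to that of Meg3, by root mean square distance of centred log2 values, were Iqgap3 (0.0976), Lrp1 (0.108) and Slc9a5 (0.123). Iqgap3 encodes a scaffold protein, Lrp1 a lipoprotein receptor and Slc9a5 a sodium-proton exchanger.

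**Figure D2:**
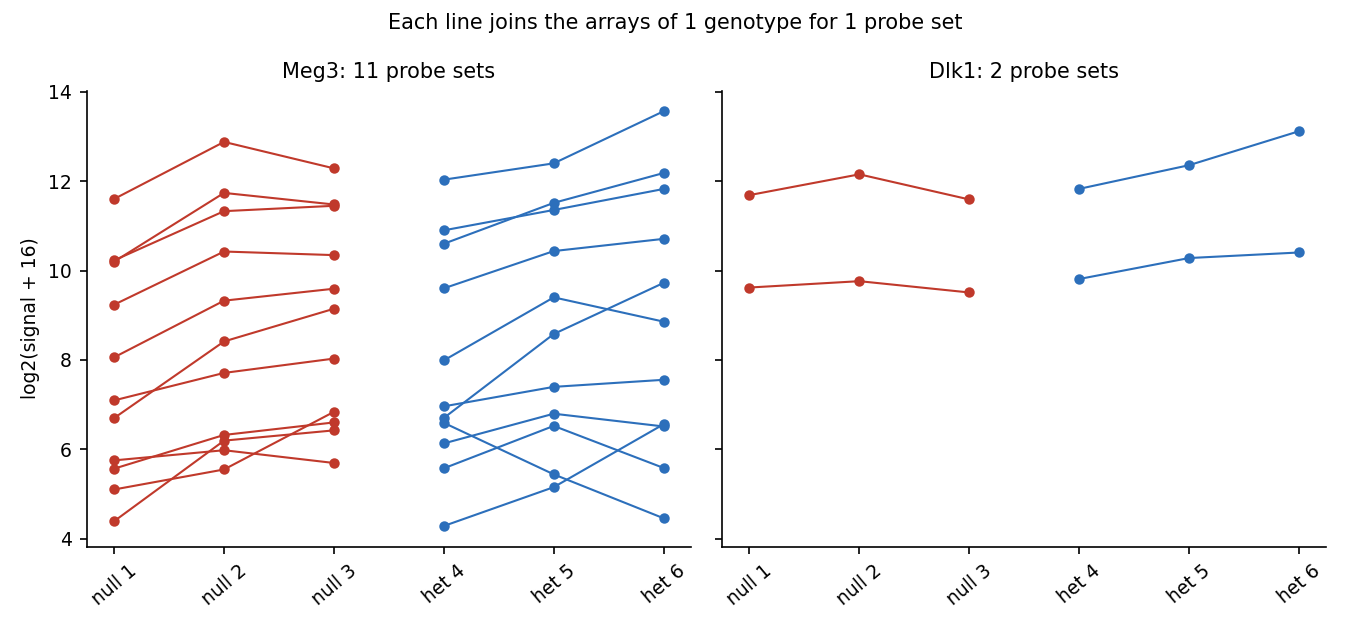
Level of each Meg3 (11) and Dlk1 (2) probe set as log2(signal + 16) on the 3 null (red) and 3 heterozygous (blue) arrays. A line marks 1 probe set within 1 genotype and does not mean an order of arrays. Null 1 and heterozygous 4 are the lowest arrays in 8 of the 11 Meg3 probe sets, and heterozygous 6 is the highest for both Dlk1 probe sets.

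The starts of Dlk1 (chr12:109452573-109452872) and Meg3 (chr12:109540746-109541045) are shown in GRCm38.p6 from RefSeq, on the plus strand, because these neighbours are active from opposite parental copies. Capitals again mark CpG pairs.
Dlk1 start: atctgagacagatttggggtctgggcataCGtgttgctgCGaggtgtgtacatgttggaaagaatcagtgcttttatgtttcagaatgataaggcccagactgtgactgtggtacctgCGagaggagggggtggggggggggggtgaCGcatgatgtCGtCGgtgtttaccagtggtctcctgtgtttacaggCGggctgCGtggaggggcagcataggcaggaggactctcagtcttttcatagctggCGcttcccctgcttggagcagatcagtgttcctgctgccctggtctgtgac
Meg3 first start: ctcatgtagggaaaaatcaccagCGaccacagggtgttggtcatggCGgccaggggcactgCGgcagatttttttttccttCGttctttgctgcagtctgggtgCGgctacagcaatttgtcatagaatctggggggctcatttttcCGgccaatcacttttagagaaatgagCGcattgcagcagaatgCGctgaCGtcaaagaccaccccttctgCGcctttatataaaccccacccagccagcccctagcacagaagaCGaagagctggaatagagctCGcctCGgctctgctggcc
The Dlk1 window has 9 CpG pairs and no TGCCGC on either strand, and the Meg3 window has 13 pairs and 1 TGCCGC on the reverse strand. RefSeq windows were found for 8 of the 10 genes, 15 windows in all, with a median of 13 CpG pairs. Of these 15, 6 hold the hexamer, and overlapping windows of Mest account for 2 of the 6. The windows ranged from 1 pair at the second Meg3 start to 45 at the first Grb10 start, which has more than 98.1% of all windows.

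Igf2 encodes the main insulin-like growth factor of the fetus. Its signal was 10561, 9915 and 8161 on null arrays and 10939, 11321 and 8968 on heterozygous arrays. The groups overlapped, and in each genotype 1 array lay below the other two. The difference was -0.13 (SE 0.22, 95% interval -0.63 to 0.38, adjusted p = 0.946, limma), an interval that reaches at most 1.55-fold lower or 1.30-fold higher in null. With 1 array left out it ran from -0.23 to -0.02. A dim second Igf2 probe set read between 1.28 and 45.0, with a difference of -0.01 (adjusted p = 0.998 over 31526 probe sets, limma). The 4 Igf2 starts in RefSeq differ in CpG content, with 2, 14, 24 and 7 pairs per window.

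H19, the non-coding RNA that shares its enhancers with Igf2, is active from the maternal copy. The probe set annotated to H19 and Mir675 read 33818, 35623 and 37730 on null arrays and 33803, 36822 and 33078 on heterozygous arrays. The arrays of both genotypes were interleaved within a narrow range. The difference was 0.05 (SE 0.23, 95% interval -0.48 to 0.57, adjusted p = 0.988 over 31526 probe sets, limma). The mature microRNAs made from H19 are shown from RefSeq because this probe set carries their name, with seeds in capitals. They share no seed with each other, and the probe set reads the long transcript, so it gives no level for them.
mmu-miR-675-5p: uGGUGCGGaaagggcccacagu
mmu-miR-675-3p: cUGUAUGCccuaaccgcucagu

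Igf2r encodes the receptor that carries IGF2 to lysosomes for breakdown. Its signal was 5476, 4702 and 4301 on null arrays and 4553, 5093 and 4061 on heterozygous arrays. The arrays were interleaved, with a difference of 0.08 (SE 0.21, 95% interval -0.42 to 0.57, adjusted p = 0.970, limma). Its sign turned when null 1 or heterozygous 6 was left out or arrays were weighted. The antisense transcript Airn, which silences the paternal Igf2r copy, had a difference of 0.13 (adjusted p = 0.955, limma) by its chosen probe set. Another of its 5 probe sets read 187, 260 and 266 on null arrays against 424, 602 and 354 on heterozygous arrays, a difference of -0.89 without overlap (adjusted p = 0.631 over 31526 probe sets, limma). Airn and Igf2r overlap, and which strand the labelled material represents was not settled, so the assignment of Airn probe sets is uncertain.

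Peg3, a zinc finger protein of the paternal copy, read 13730, 16026 and 14289 on null arrays and 14229, 17812 and 15718 on heterozygous arrays. The groups overlapped, with a difference of -0.11 (95% interval -0.59 to 0.36, adjusted p = 0.950, limma). Plagl1, a zinc finger factor of the paternal copy that regulates other imprinted genes, read 15813, 17756 and 16704 against 16047, 18614 and 20034. Its groups overlapped too, with a difference of -0.12 (95% interval -0.59 to 0.36, adjusted p = 0.946, limma). For both genes the sign turned when all probe sets were averaged, to 0.12 for Peg3 and 0.13 for Plagl1.

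Grb10 encodes an adaptor that dampens insulin and IGF receptor signalling. Its signal was 24004, 22918 and 21240 on null arrays and 23303, 22096 and 17122 on heterozygous arrays, where heterozygous 6 was the lowest. The difference was 0.14 (SE 0.22, 95% interval -0.37 to 0.64, adjusted p = 0.940, limma). It was 1.4e-05 without heterozygous 6, and 0.63 with probe sets averaged (unadjusted p = 0.038, adjusted p = 0.576, limma). A dim Grb10 probe set read 109, 68.8 and 79.5 on null arrays and 22.3, 53.4 and 8.31 on heterozygous arrays, higher without overlap (1.32, adjusted p = 0.594 over 31526 probe sets, limma), where 5.63% of probe sets had no overlap and were higher. Over all 27 tested probe sets of the 9 genes, 0 were called, against 0.206% of probe sets, 3 had no overlap and were lower and 1 had no overlap and was higher. These 27 are not independent, since several read the same transcript.

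**Figure D3:**
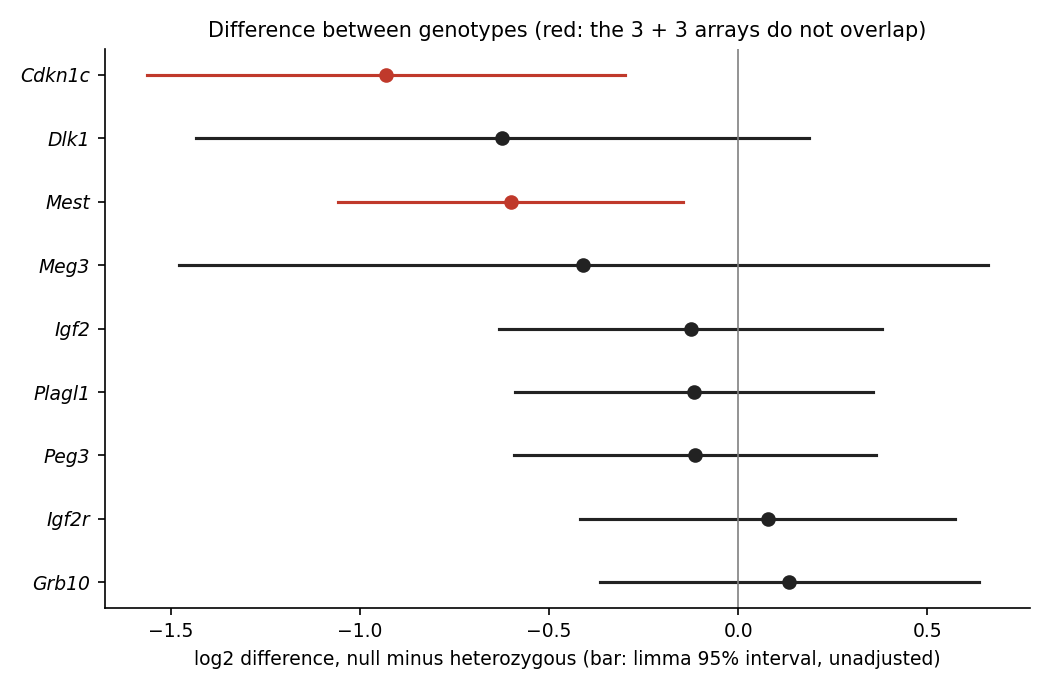
Difference of each gene between genotypes on the log2 scale, null minus heterozygous, with limma's unadjusted 95% interval. Red marks Mest and Cdkn1c, whose 3 null and 3 heterozygous arrays do not overlap. None of the 9 passed after adjustment over all genes.

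By parental copy, the 5 paternally expressed genes had differences from -0.62 (Dlk1) to -0.11 (Peg3), and the 4 maternally expressed ones from -0.93 (Cdkn1c) to 0.14 (Grb10). The negative sign of Peg3 and Plagl1 did not hold with probe sets averaged. By the brightest probe set, the intervals of Igf2, Igf2r, Peg3, Plagl1 and Grb10 reached no further than 1.55-fold in either direction, while those of Dlk1 and Meg3 reached 2.70-fold and 2.79-fold lower in null. For Grb10 the averaged probe sets gave a difference of 0.63, so that bound holds for the brightest one.

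The wider imprinted genes were read from lists. Of 16 tested other paternally expressed genes 0 were called, 11 lay below 0 and the median was -0.22, with 1 lower without overlap (7.36% of all genes). That gene was Ndn, which encodes a growth-restraining protein of neurons and mesenchyme. Ndn read 12964, 15213 and 14105 on null arrays and 17398, 17020 and 19857 on heterozygous arrays. Its difference was -0.36 (SE 0.20, adjusted p = 0.738, limma). Peg10, a retrotransposon-derived gene of placental growth, read 1296, 608 and 1841 against 903, 592 and 157, a difference of 1.33 with overlap (adjusted p = 0.679, limma) that was 0.62 without heterozygous 6. Nap1l5, a nucleosome assembly protein gene, had a difference of -0.59 (adjusted p = 0.713, limma), and between -0.88 and -0.36 with 1 array left out.

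Of 14 tested other maternally expressed genes 0 were called, with a list median of -0.05. Lower without overlap (7.36% of all genes) were 2 of the 14, Tssc4 and Nap1l4. Both lie in the imprinted domain that holds Cdkn1c. Tssc4 read 313, 308 and 251 against 490, 371 and 373, a difference of -0.47 (adjusted p = 0.660, limma), and Nap1l4 had -0.22 (adjusted p = 0.862, limma). Klf14, a zinc finger factor gene, and Asb4, an adaptor of ubiquitin ligases, had -0.71 and -0.48 with overlap (adjusted p = 0.701 and 0.746, limma). With 1 array left out Klf14 ran from -1.13 to -0.47 and Asb4 from -0.63 to -0.26. Phlda2, a placental growth restrainer next to Cdkn1c, was too dim to be tested, with signals of 73.0, 31.3 and 66.0 on null arrays and 20.6, 4.79 and 5.28 on heterozygous arrays.

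Position was a property not used to choose the genes. The 3 nearest genes on each side with a probe set, in RefSeq order, gave 48 neighbours outside the set, of which 26 were tested and 0 were called. Their median difference was 0.06, and 3 were lower and 2 higher without overlap, where 7.36% and 6.07% of all genes were. Around Cdkn1c, the non-coding Kcnq1ot1, which silences the paternal copies of the domain, had a difference of 0.09 (adjusted p = 0.967, limma), and Slc22a18, a transporter gene, had 0.46 (adjusted p = 0.820, limma) and 0.059 without heterozygous 4. Copg2, beside Mest, had -0.15 (adjusted p = 0.934, limma). Cobl, beside Grb10 and an actin nucleator of microvilli, read 1096, 554 and 593 against 435, 248 and 428, a difference of 0.96 (adjusted p = 0.532, limma) that was 0.35 with probe sets averaged. Near H19 and Igf2, Tnnt3, a skeletal troponin, had 0.75 and the tyrosine hydroxylase gene Th -1.85 (adjusted p = 0.401 and 0.515, limma), and Th had -1.06 without null 1. Neighbours thus lay on either side of 0 at the same locus.

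The genes through which IGF2 acts lay on both sides of 0. IGF2 signals through the receptors encoded by Igf1r and Insr, and binding proteins of the Igfbp family and the proteases that cut them set how much is free. Of 15 tested genes of this axis 0 were called, with a median of -0.05, and 1 was higher and 4 lower without overlap. Over all genes tested, 6.07% were higher and 7.36% lower without overlap. Igf1, the related growth factor, read 2780, 3160 and 3123 on null arrays and 4059, 4428 and 4340 on heterozygous arrays. All null arrays were lower, with little spread, and the difference of -0.50 (SE 0.20, 95% interval -0.95 to -0.05) had an adjusted p of 0.579 (limma). Igf1r had 0.58 and Insr 0.43, both with overlap (adjusted p = 0.834 and 0.778, limma). Without heterozygous 6, which read 436 against 1402 and 1579, Igf1r had 0.0041, and with probe sets averaged Igf1r had -0.0039 and Insr 0.036.

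Igfbp2 was the axis gene with the smallest p. It read 2164, 1483 and 1743 on null arrays and 635, 837 and 370 on heterozygous arrays, without overlap. The difference was 1.58 (SE 0.33, 95% interval 0.83 to 2.33, adjusted p = 0.167, limma), a 2.99-fold one, and it was called in 0 of 16 alternatives. The intestine list stood at 3.84, 4.75 and 4.90 above the heterozygous mean on the same null arrays, with 9 of 9 tested genes above 0, summed signals of 13097 to 22223 in null and 251 to 551 in heterozygous bladders. Which cells made Igfbp2 was not measured, and the part of the intestine genes in its difference was not tested.

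Igfbp1, a binding protein known from liver, read 74.9, 65.1 and 67.0 on null arrays and 881, 577 and 107 on heterozygous arrays. Its difference of -2.25 (SE 0.65, adjusted p = 0.382, limma) rested on heterozygous 4 and 5, and without heterozygous 6 it was -3.10 and called (adjusted p = 0.0063, limma). With arrays weighted it was -2.87 and called as well (adjusted p = 0.0379, limma), and it was called in 2 of 15 alternatives. The size depended on the offset, at -2.44 with 1 and -1.82 with 64. Alb, a liver marker, read 995, 124 and 43.9 on heterozygous arrays and 24.0, 1.91 and 74.0 on null arrays. Of 6 tested genes of the liver list 3 lay below 0, Alb (-2.35), Afp (-1.15) and Apoa2 (-1.13), all with overlap. Afp read 966, 170 and 66.6 and Apoa2 464, 91.1 and 73.1 on heterozygous arrays. Like Alb and Igfbp1, both were highest on heterozygous 4. The 3 above 0 were Hnf4a (4.56), Apoa1 (1.62) and Ttr (1.27). The list median was 0.07. Hnf4a was called higher in null (adjusted p = 0.00087, limma), where 0.448% of all genes were. The part of liver genes in the Igfbp1 difference was not tested. Pappa2, a protease that frees IGF from binding proteins, read 144, 419 and 280 against 487, 455 and 623, a difference of -0.96 (adjusted p = 0.561, limma) that was -0.57 without null 1. Igfbp5, a binding protein of mesenchyme, had -0.32 without overlap (adjusted p = 0.780, limma).

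**Figure D4:**
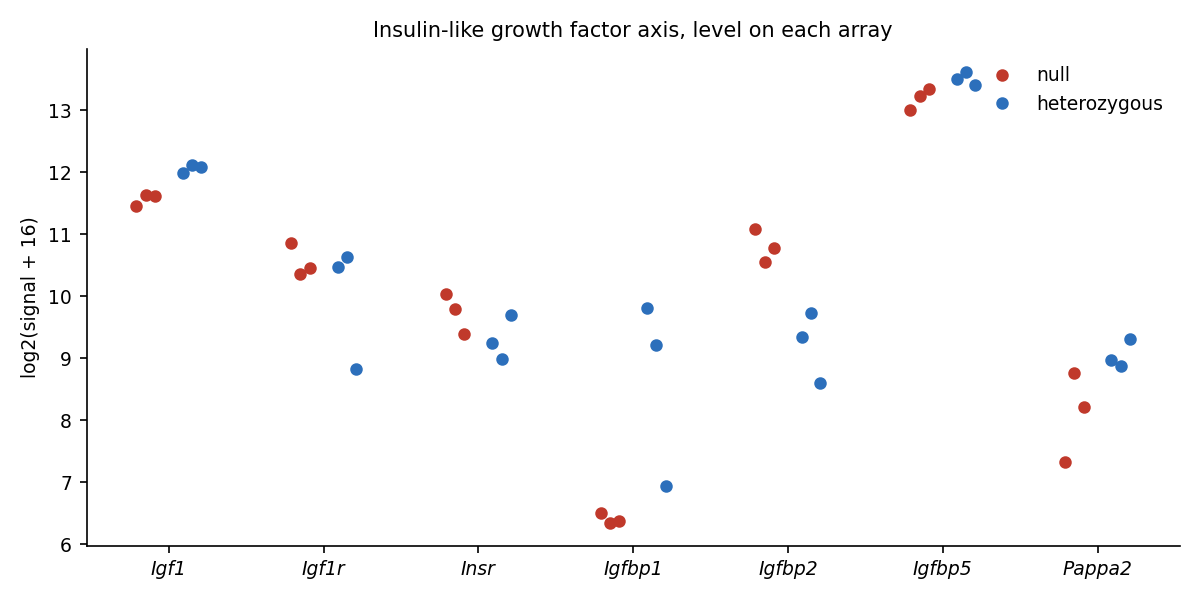
Level of 7 genes of the insulin-like growth factor axis as log2(signal + 16) on 3 null (red) and 3 heterozygous (blue) arrays. Igf1, Igfbp1, Igfbp5 and Pappa2 are lower and Igfbp2 is higher in null without overlap, and none passed adjustment over all genes. Levels of different genes come from different probes and are not compared.

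Relatives of the imprinted genes that are not imprinted were read as well. Of 7 tested relatives 0 were called and the median was 0.19. Cdkn1a, the p21 relative of Cdkn1c, read 601, 852 and 677 on null arrays and 702, 1103 and 2683 on heterozygous arrays, so the groups overlapped (-0.85, adjusted p = 0.727, limma). Without heterozygous 6 the Cdkn1a difference was -0.32. M6pr, the other mannose 6-phosphate receptor beside Igf2r, was higher without overlap by a small difference of 0.19 (adjusted p = 0.884, limma).

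Genes that keep imprints and genes of fetal growth outside imprinting gave 0 calls as well. Of 15 tested imprint maintenance genes the median was -0.06, and 1 was lower without overlap (7.36% of all genes). This was Dnmt3l, a partner of DNA methyltransferases in germ cells, which read 43.9, 57.5 and 58.7 against 78.2, 109 and 97.8 (difference -0.67, adjusted p = 0.466, limma). Arid4a, a chromatin factor gene, had 0.78 with overlap (adjusted p = 0.654, limma), 0.46 without heterozygous 6 and 0.39 with probe sets averaged. Of 9 tested fetal growth genes the median was -0.05. Sox11 and Sox4, transcription factors of progenitor cells, had -0.50 without overlap and -0.72 with overlap (adjusted p = 0.746 and 0.625, limma), and -0.22 and -0.47 without null 1.

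**Figure D5:**
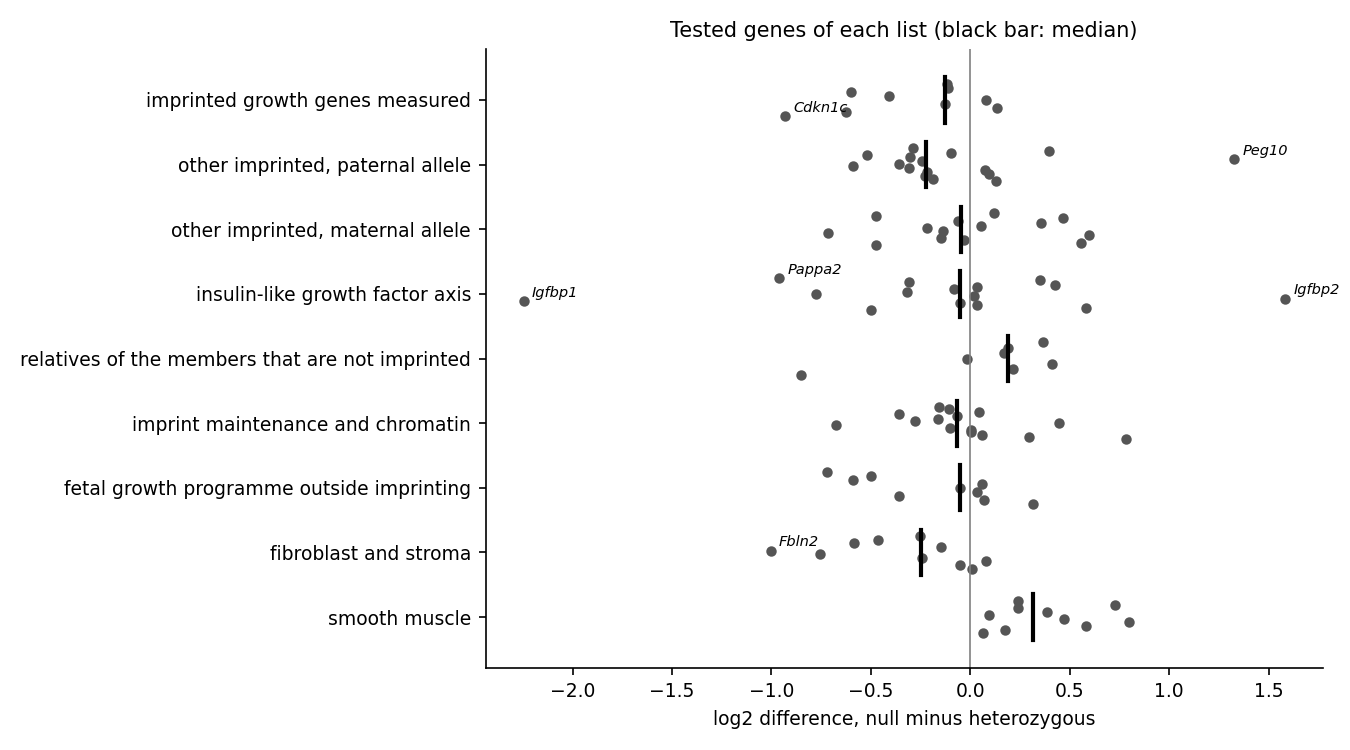
Log2 difference, null minus heterozygous, of every tested gene in 9 lists, with the median as a black bar. The medians run from -0.25 (fibroblast and stroma) to 0.31 (smooth muscle), and that of the imprinted growth genes is -0.13. Genes beyond 0.9 in size are named.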

How the data were processed

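Bladder RNA of Get1 -/- and Get1 +/- mouse embryos was measured on 6 arrays, 3 per genotype. The arrays were grouped by the titles, in which replicate numbers are not shared between groups. The authors deposited linear intensity values per probe set. The submitters' processing notes name PLIER 2.0 and Affymetrix Expression Console 1.1, without role or order. How background was corrected, how arrays were scaled and which build was used are points not given in the sources used here, and the labelling protocol does not settle the strand. Of 45101 probe sets, 34945 had 1 symbol in the platform annotation, 932 had several and named no gene, and 9224 (64 controls among them) were unnamed here. The 30% of genes with the lowest mean were left out. Tests were two-sided, from lmFit and eBayes of limma 3.58.1 under R 4.3.3. Alternatives changed the offset, dim filter, probe set choice, scaling, weights, moderation and arrays used. The fit was tested on simulated data. The number of arrays limits the precision. The genes and lists were chosen with earlier results of these data known. Named are the listed genes, Grhl3, up to 3 per list with the smallest p, insulin-like growth factor axis genes, relatives, and the 3 profiles nearest to the most variable gene. Airn, Rian, Mirg, Nap1l4, Kcnq1ot1, Slc22a18, Copg2, Cobl, Tnnt3, Th, Phlda2, Alb, Afp, Apoa1, Ttr, Col1a1, Col1a2 and Col3a1 were named after their values were seen.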

Additional observations from a re-analysis of the deposited data

How the results depend on the processing

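The count of called imprinted growth genes was 0 under all 16 alternatives. Mest and Cdkn1c kept their direction and the separation of their groups under quantile normalization and centring on the upper quartile. The other alternatives could not undo the separation. They keep the order of the arrays for a gene with a single probe set, or they leave arrays out. In the settings of the report 57 genes were called higher and 8 lower, and 2 of the 9 had no overlap. Of the 9, those without overlap numbered 4 without heterozygous 4, and 4 without null 1 and heterozygous 4, where Dlk1 and Plagl1 joined. With 1 array left out this count ran from 2 to 4. Fewer arrays separate more easily, so these counts cannot be set against the 2 of the 9 on all arrays. The share of all genes without overlap in these settings is not given here. Over all genes, with 1 array left out, those called lower ran from 5 to 9 and those called higher from 38 to 53. With an offset of 1, 36 genes were called higher and 5 lower, with the dimmest 50% left out 5 were called lower, and without null 1 and heterozygous 4 together 5. The sign turned with array weights for Igf2r (-0.0049), Meg3 (0.040), Airn (-0.012) and Iqgap3 (0.025). With probe sets averaged it turned for Peg3 (0.116), Plagl1 (0.127), Airn (-0.187), Igf1r (-0.0039), Mirg (0.228) and Rian (0.296), and without null 1 and heterozygous 4 together for Igf2r (-0.016), Mirg (0.247) and Rian (0.050). With 1 array left out the ranges that crossed 0 were -0.13 to 0.27 for Airn, -0.017 to 0.16 for Igf2r, -0.78 to 0.073 for Iqgap3, -0.046 to 0.27 for Kcnq1ot1, -0.73 to 0.040 for Meg3, -0.42 to 0.16 for Mirg and -0.13 to 0.058 for Rian, and Airn had 0.32 without null 1 and heterozygous 4 together, a setting chosen after seeing the data. The cause was not tested. No paired analysis was possible because the groups share no replicate number. Dim genes near the lowest level of 4 on the log2 scale depend on the offset.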
